A study of Mus musculus with 4 samples.

Results

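miR-140 is a microRNA whose hairpin yields 2 mature strands, miR-140-5p and miR-140-3p. Both were taken by name from the series' table, which lists 1078 mature mouse miRNA names, so they are 2 of 1078. The pair was selected on measured values of these same libraries, namely the levels of both strands by cell type, the strand ratio and the shifted 5′ ends of the 3p strand. Those values, and where miR-140 ranks on them, are therefore a description and carry no test. Small RNA was sequenced from 4 mouse cell populations, HSC, imDC, maDC and DCreg, with 1 library each. There were no replicates, so no spread between cultures is known and no p-value is given for any difference.

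All 4 populations were from C57BL/6J mice, and the mice whose marrow was cultured were 5 to 6 weeks old. HSC were marrow cells sorted as c-Kit+ Sca1+ Lineage-, the surface pattern of hematopoietic stem and progenitor cells. imDC, immature dendritic cells, were grown out of marrow over 6 days in GM-CSF (10 ng/mL) with a lower dose of IL-4 (1 ng/mL). maDC, mature dendritic cells, were begun in the same cytokines, received 10 ng/mL lipopolysaccharide, a bacterial activator, from day 4, and were picked by CD11c beads on day 8. DCreg, regulatory dendritic cells, were obtained from maDC by 7 or more days of co-culture on endothelial-like splenic stromal cells, and then picked by CD11c beads. DCreg therefore share the GM-CSF, IL-4 and lipopolysaccharide history of maDC, and any stromal RNA carried over with them would be counted in their library.

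A microRNA hairpin is cut by Drosha near its base and by Dicer near its loop, which leaves a short duplex of the 5p and 3p strands. One strand is kept in an Argonaute protein and the other is mostly degraded. The kept strand finds messenger RNAs chiefly through its seed, bases 2 to 8 from its 5′ end, so a cut moved by a single base gives a different seed. miR-140 is best known from cartilage, where it is abundant and where mice without it have skeletal defects.

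The sequences show why the 5′ end of the 3p strand matters. The hairpin is 70 bases long in RefSeq (GRCm38.p6), and capitals mark the annotated 5p and 3p strands in it. In the mature strands and reads, capitals mark the seed. The next 4 lines after the mature strands are miR-140 reads. First come the commonest miR-140 read and the commonest with the annotated start. Then comes the shifted read with an extra U or an extra A at its 3′ end.
mir-140 hairpin: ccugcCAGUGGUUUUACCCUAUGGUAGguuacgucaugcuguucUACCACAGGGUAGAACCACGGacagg
miR-140-5p: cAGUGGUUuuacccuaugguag
miR-140-3p: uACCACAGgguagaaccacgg
shifted 3p read: aCCACAGGguagaaccacgga
annotated-start 3p read: uACCACAGgguagaaccacgga
shifted 3p read with U: aCCACAGGguagaaccacggau
shifted 3p read with A: aCCACAGGguagaaccacggaa

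The hairpin lies at chr8:107551244-107551313 on the plus strand of GRCm38. It is within Wwp2, which encodes a ubiquitin ligase and runs on the same strand from 107436365 to 107558595 in GENCODE M21. In a 24-exon transcript of Wwp2 it sits in intron 16, at 107550136 to 107552276, and it overlaps an exon of a retained-intron transcript. The 22-base 5p strand spans 107551249 to 107551270, and the 21-base 3p strand spans 107551288 to 107551308. The 3p sequence is identical in the series' table and in RefSeq, and the 5p sequence is that of the series' table. RNAfold gave the hairpin a minimum free energy of -39.1 kcal/mol with 30 base pairs, 19 of them between the 2 annotated strands. The first base of each strand, and the base after it at the 3p start, was paired in that fold.

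The libraries held 6277096 reads in HSC, 6554086 in imDC and 6572858 in maDC, and 4904897 in DCreg, each listed as unique sequences with copy numbers. Exact matching assigned 80.1% to 83.9% of these reads to a miRNA. No miR-140 read was shared with another miRNA. The deposited table gives 1 score per miRNA and library with no stated unit, and the score of miR-140-3p was 1.34 to 1.54 times its recounted reads. For miRNAs with at least 1000 reads the median of that factor was 1.20 to 1.39, so both the deposited score and the recount are given where they differ. Levels are in ppm, the copies in 1000000, of the summed deposited scores or of the recounted miRNA reads. Intervals are exact 95% intervals and cover counting error only, since PCR copies without molecular identifiers are not independent molecules.

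miR-140-3p was among the most abundant miRNAs in all 4 libraries and was highest in DCreg. Its deposited score was 307461 in HSC and 303483 in imDC, with 384088 in maDC and 413339 in DCreg. As a share of all scores this was 72747 ppm in HSC and 57795 ppm in imDC, then 85819 ppm in maDC and 151631 ppm in DCreg. It ranked number 3 of all miRNAs in HSC, imDC and maDC, and first in DCreg. The recount gave lower levels, 38359 ppm (38194 to 38524) in HSC, 39162 ppm (38997 to 39329) in imDC and 45426 ppm (45253 to 45600) in maDC, and 78666 ppm (78400 to 78933) in DCreg. By the recount it ranked 6 in HSC and 9 in imDC, with 5 in maDC and 5 in DCreg. DCreg stood above the other 3 libraries on both scales. HSC and imDC changed places between the scales, so their order is not settled by these files.

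Called changes needed a 2-fold difference in the deposited score's share and at least 100 ppm in 1 of the 2 libraries. DCreg over HSC was 2.08-fold for miR-140-3p (log2 1.06; 2.05 by the recount, interval 2.04 to 2.06), and it passed that rule. In that comparison 75.4% of the 175 miRNAs tested passed, with a median log2 change of -1.43, and miR-140-3p was number 34 from the highest. The other comparisons stayed under 2-fold on these scales. DCreg over maDC was 1.77-fold (log2 0.82; 1.73 by the recount, 1.72 to 1.74), under the 2-fold rule that 48.6% of 138 miRNAs passed. maDC over imDC was 1.48-fold (log2 0.57; 1.16 by the recount, 1.15 to 1.17), where 54.4% of 160 miRNAs passed. imDC over HSC was 0.794-fold (log2 -0.33) by the deposited score and 1.02-fold (1.01 to 1.03) by the recount, where 54.5% of 187 miRNAs passed. By the deposited share and by the recount, the largest step between neighbouring stages was that of DCreg over maDC. That order depended on the scaling, since TMM factors gave 2.17-fold for maDC over imDC and 1.90-fold for DCreg over maDC, and median-of-ratios factors gave 2.42-fold and 1.78-fold. Without the 5 most abundant miRNAs in the total, DCreg over maDC was 2.25-fold and passed the rule. DCreg over HSC passed it under every scaling tried, at up to 3.79-fold with TMM factors.

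miR-140-5p, the strand opposite it in the duplex, was near the lower end of what these libraries could count. Its deposited score was 72 in HSC and 162 in imDC, then 33 in maDC and 47 in DCreg. That was 17.0 ppm in HSC, 30.9 ppm in imDC and 7.37 ppm in maDC, and 17.2 ppm in DCreg, at ranks 282, 225, 288 and 222 in the same order. The recount found 43 reads in HSC and 82 in imDC, with 11 in maDC and 34 in DCreg. imDC had the most on both scales and maDC the fewest. Being under 100 ppm throughout, miR-140-5p was not among the miRNAs tested for the 2-fold rule.

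The recount gave 5p levels of 8.28 ppm (5.99 to 11.2) in HSC and 15.6 ppm (12.4 to 19.3) in imDC, then 1.99 ppm (0.995 to 3.57) in maDC and 8.65 ppm (5.99 to 12.1) in DCreg. imDC over HSC was 1.88-fold (1.29 to 2.79) by the recount and 1.81-fold by the deposited score. maDC was 7.82-fold lower than imDC (4.15 to 16.3) by the recount and 4.18-fold lower by the deposited score. Of the comparisons, this one had the largest ratio for 5p. DCreg over maDC was 4.34-fold (2.15 to 9.50) by the recount and 2.34-fold by the deposited score. DCreg over HSC was 1.05 (0.646 to 1.68) by the recount, an interval that includes 1. That ratio depended on the scaling, since the deposited scores gave 1.85 with TMM factors and 1.57 with median-of-ratios factors. The 2 strands thus moved in opposite directions between imDC and maDC, where 3p was higher in maDC and 5p lower, while both were higher in DCreg than in maDC.

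**Figure D1:**
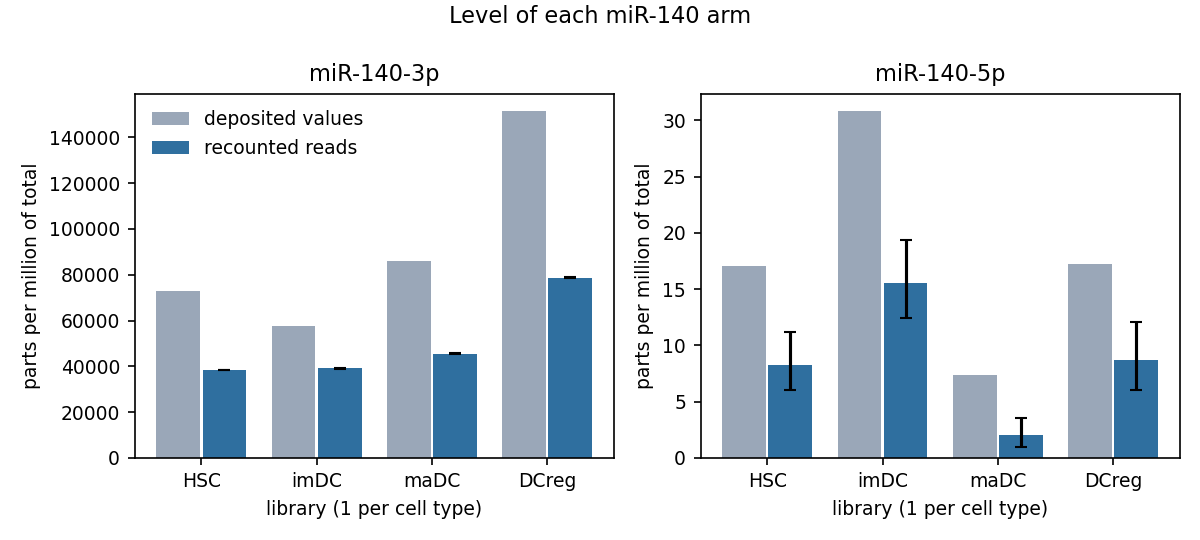
Level of miR-140-3p and miR-140-5p (ppm) in the 4 libraries, from the deposited scores and from recounted reads with exact 95% intervals for counting error. miR-140-3p lies between 38359 and 151631 ppm on the 2 scales, while miR-140-5p lies between 1.99 and 30.9 ppm.

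The 3p strand made up nearly all miR-140 reads in every library. It was 99.978% of the reads of both strands in HSC (99.971 to 99.984), 99.960% in imDC (99.951 to 99.968) and 99.996% in maDC (99.992 to 99.998), and 99.989% in DCreg (99.985 to 99.992). Written as a ratio, there were 4632 reads of 3p per read of 5p in HSC (3439 to 6401) and 2513 in imDC (2024 to 3159), with 22785 in maDC (12734 to 45644) and 9090 in DCreg (6504 to 13125). The deposited scores gave 4270 in HSC and 1873 in imDC, then 11639 in maDC and 8794 in DCreg. On both scales the ratio was lowest in imDC and highest in maDC. The recounted interval of imDC overlapped no other library's, and that of HSC lay just below that of DCreg. The intervals of DCreg and maDC met between 12734 and 13125. Since 5p rests on 11 to 82 reads, the spread of these ratios follows the 5p count far more than the 3p count.

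**Figure D2:**
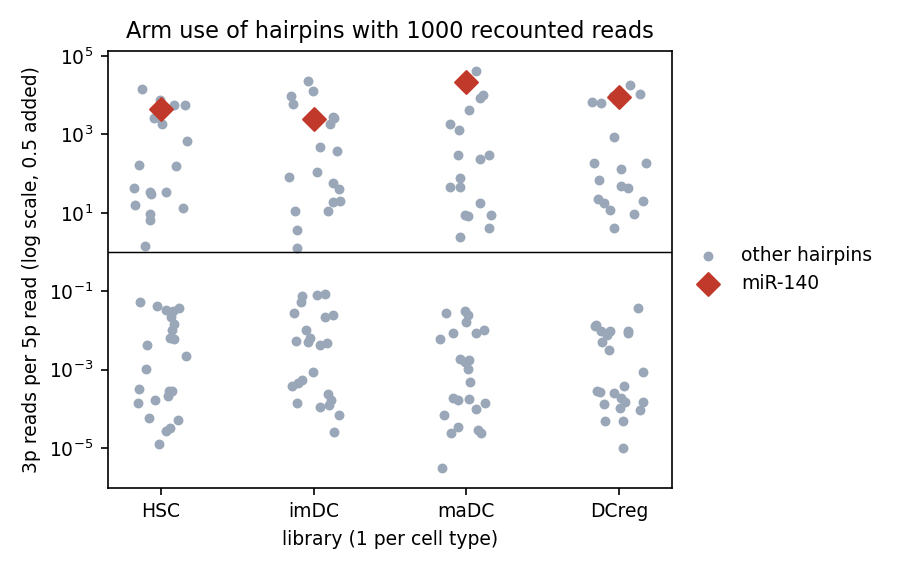
Recounted miR-140-3p reads per miR-140-5p read (log axis) in the 4 libraries. The recounted ratio is 2513 in imDC and 22785 in maDC, with HSC and DCreg between them.

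A near-complete excess of one strand was shared by other hairpins. Of the 380 hairpins with both strands in the table, 44 had at least 1000 reads of both strands together in every library. A 5p share of at most 0.1% was found for 18.2% of these in HSC, 18.2% in imDC and 18.2% in maDC, and 15.9% in DCreg, miR-140 among them each time. A higher 3p share than that of miR-140 was found for 4 hairpins in HSC and 6 in imDC, and for 3 in maDC and 6 in DCreg. In all, 20 of the 44 hairpins gave more 3p than 5p in every library. Other hairpins changed their strand use where miR-140 did not move from the 3p end of the scale. In DCreg against HSC, the 3p share of mir-322 was 90.4% against 58.3%, and that of mir-23b was 80.8% against 93.0%. A minor strand highest in imDC and lowest in maDC was not particular to miR-140. For mir-10a the minor strand, 3p, made up 2.72% in imDC and 0.844% in maDC. For let-7b it made up 0.0169% and 0.0023%. Not all hairpins did so, for mir-152 had its highest 3p share, 99.975%, in imDC.

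Most miR-140-3p reads did not begin at the annotated first base. The annotated start was used by 32.6% of 3p reads in HSC and 38.5% in imDC, then 46.9% in maDC and 19.1% in DCreg. A start 1 base further in was used by 66.2% in HSC, 60.1% in imDC and 51.9% in maDC, and 79.2% in DCreg. This shifted form was the commoner one in all 4 libraries, by the widest margin in DCreg and the narrowest in maDC, where the shifted share fell under 50% if only reads with no unmatched 3′ base (49.2%) or only reads of 22 bases (37.4%) were kept. A start 2 bases further in was used by 1.23% in HSC and 1.39% in imDC, with 1.17% in maDC and 1.70% in DCreg. Starts 1 base before the annotated one came to 7 to 20 reads a library.

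Counting every read off the annotated start, the shifted share was 67.4% in HSC (67.2 to 67.7) and 61.5% in imDC (61.3 to 61.8), then 53.1% in maDC (52.9 to 53.3) and 80.9% in DCreg (80.7 to 81.0). These rest on 199183 reads of 3p in HSC, 206032 in imDC and 250634 in maDC, and 309045 in DCreg, so the intervals are narrow and none overlaps another. Per read with the annotated start there were 2.03 reads of the 1-base-shifted form in HSC (2.01 to 2.05) and 1.56 in imDC (1.55 to 1.58), with 1.11 in maDC (1.10 to 1.12) and 4.14 in DCreg (4.10 to 4.18). The balance was thus near parity in maDC, and the shifted form was in clear excess in DCreg. No culture was repeated, so how much of this lies within the variation between cultures is not known.

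**Figure D3:**
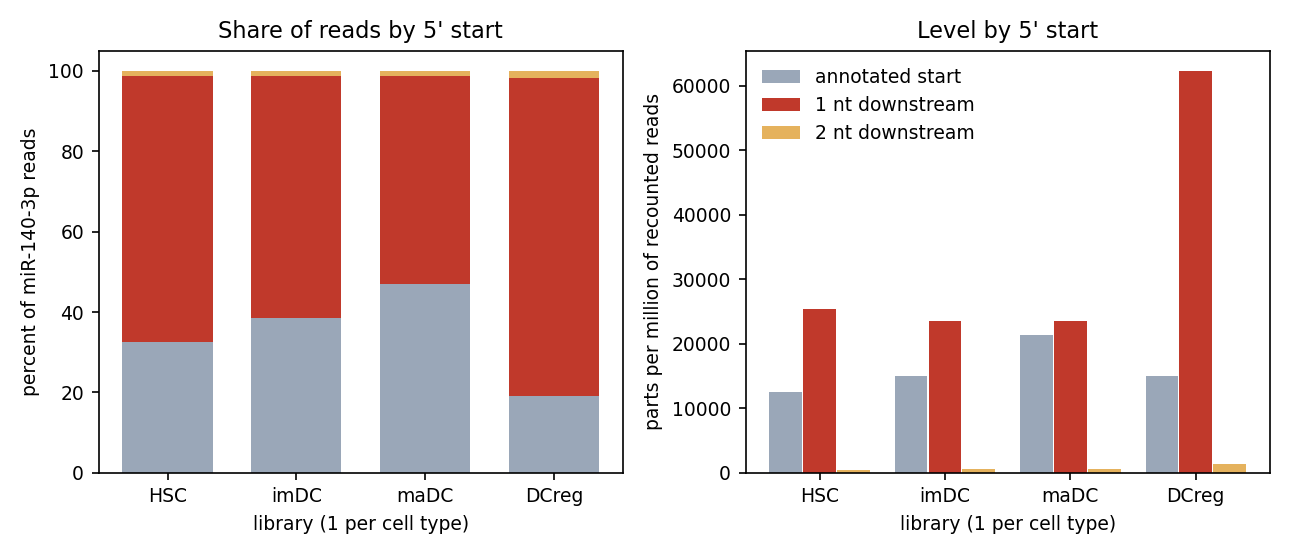
Share of miR-140-3p reads (%) by 5′ start in the 4 libraries, with the annotated start and the starts 1 and 2 bases further in. The start 1 base further in takes 51.9% of reads in maDC and 79.2% in DCreg.

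Taken as separate molecules, the 2 forms had different courses over the cell types, as shares of the recounted miRNA reads. The annotated-start form was at 12486 ppm in HSC and 15060 ppm in imDC, then 21314 ppm in maDC and 15050 ppm in DCreg, peaking in maDC. The form shifted by 1 base was at 25396 ppm in HSC, 23554 ppm in imDC and 23578 ppm in maDC, and 62279 ppm in DCreg, nearly level over the first 3 and higher in DCreg. DCreg over maDC was therefore 2.64-fold (2.62 to 2.66) for the shifted form and 0.706-fold (0.699 to 0.713) for the annotated-start form. maDC over imDC was 1.00-fold (0.993 to 1.01) for the shifted form and 1.42-fold (1.40 to 1.43) for the annotated-start form. Against HSC, DCreg had 2.45-fold (2.44 to 2.47) of the shifted form and 1.21-fold (1.19 to 1.22) of the annotated-start form. On this scale the excess of miR-140-3p in DCreg over maDC thus lay in the shifted form. The step between imDC and maDC lay in the annotated-start form. By the recount the median miRNA changed by log2 -1.30 in maDC over imDC, with 2 called higher and 77 lower. The number tested by the recount is not given here. Other scalings were not tried for the forms and would move both by the same factor. Only the balance between the forms is free of scaling. Even the rare start 2 bases further in followed the shifted form in DCreg, at 1335 ppm against 533 ppm in maDC.

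The 5p strand used its annotated start almost without exception. The annotated base began 40 of 43 reads in HSC and 81 of 82 in imDC, and 11 of 11 in maDC and 34 of 34 in DCreg. The remaining 3 reads in HSC and 1 in imDC began 1 base further in. As background, the 5p start of a hairpin is made by the Drosha cut and the 3p start by the Dicer cut.

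Few abundant miRNAs carried as large a shifted share. Of the 38 miRNAs with at least 1000 reads in every library and a RefSeq hairpin, 5.26% had more than 50% of reads off the annotated start in HSC and 10.5% in imDC, then 7.89% in maDC and 7.89% in DCreg. miR-140-3p was one of them in all 4 libraries. The median shifted share of the 38 was 0.632% in HSC, 0.814% in imDC and 0.628% in maDC, and 0.689% in DCreg. The others with a high share included miR-142-5p at 77.2% in HSC and 77.3% in imDC, with 83.8% in maDC and 84.8% in DCreg. miR-101a-3p had 38.8% in HSC and 61.6% in imDC, then 60.8% in maDC and 52.2% in DCreg. miR-140-3p therefore stood with a small set of miRNAs whose reads mostly began off the annotated start in at least 1 library. How far read shares follow the amounts of RNA in the cells was not tested.

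The change of the shifted share in DCreg against maDC was larger for miR-140-3p than for any other of the 38 miRNAs. It differed by 27.8 percentage points, where the next largest was -8.63 points for miR-101a-3p and the median size was 0.186 points. A move of at least 10 points was seen for 2.63% of the 38 in that comparison, which is miR-140-3p alone. Since the shifted ends were among the values that chose miR-140, and the 10-point limit was set after they were seen, this place is no independent support. In DCreg against HSC the difference was 13.4 points, number 3 in size after others that included miR-101b-3p at -14.6 points, and 10.5% of the 38 moved by at least 10 points. In maDC against imDC it was -8.46 points, second to miR-101b-3p at -20.4 points, with 2.63% of the 38 moving by at least 10. In imDC against HSC it was -5.91 points, number 4 in size after others that included miR-101a-3p at 22.8 points, with 5.26% of the 38 moving by at least 10. The comparisons share libraries, so a high value in DCreg enters more than 1 of them.

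**Figure D4:**
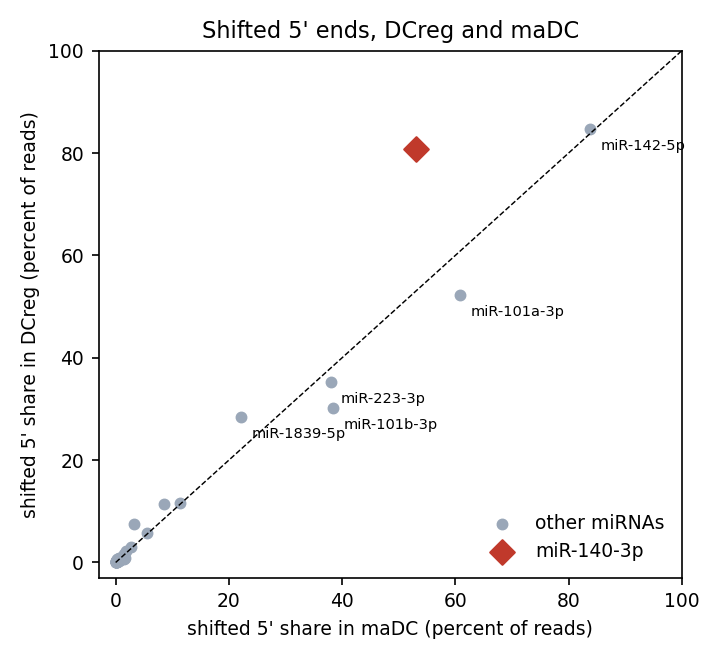
Share of reads off the annotated start (%) for 38 abundant miRNAs, 1 point each, with DCreg set against maDC. miR-140-3p lies farthest from the diagonal in DCreg against maDC, at 80.9% against 53.1%, and most points lie near 0 on both axes.

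The annotated and shifted forms carry different seeds. The annotated 3p seed is ACCACAG, the form shifted by 1 base has CCACAGG, and the form shifted by 2 bases has CACAGGG. No other miRNA of the table has any of these 3 at bases 2 to 8. The 5p seed, AGUGGUU, is shared with miR-876-3p, which had 0 recounted reads in all 4 libraries. Over all reads of the libraries, 92.5% to 95.1% of those with ACCACAG at bases 2 to 8 were miR-140-3p, and 93.3% to 95.6% of those with CCACAGG. In these libraries both 3p seeds thus came mostly from this hairpin, and CCACAGG was the commoner of the pair in each. The 5p seed did not, for miR-140-5p made up 40 of 5017 reads with AGUGGUU at bases 2 to 8 in HSC and 81 of 7285 in imDC, then 11 of 9637 in maDC and 34 of 4575 in DCreg.

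The commonest single miR-140 read was the same in all 4 libraries, the 21-base shifted read printed above. It had 61348 copies in HSC, 62715 in imDC and 70460 in maDC, and 137365 in DCreg. It made up 30.8% of 3p reads in HSC and 30.4% in imDC, with 28.1% in maDC and 44.4% in DCreg. The commonest read with the annotated start, 22 bases long, had 25326 copies in HSC and 34754 in imDC, then 61311 in maDC and 27320 in DCreg. Both end 1 base past the annotated 3′ end, so they differ only by the first U. The mean length of the shifted form was 21.5 bases in HSC, 21.4 in imDC and 21.4 in maDC, and 21.4 in DCreg. That of the annotated-start form was 21.8 bases in HSC and 21.9 in imDC, with 22.4 in maDC and 22.3 in DCreg.

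The 3′ ends varied too, and differently for the 2 forms. The share of annotated-start reads that stopped exactly at the annotated 3′ end was 35.8% in HSC and 28.9% in imDC, then 5.73% in maDC and 10.7% in DCreg. Among shifted reads it was 5.39% in HSC, 7.05% in imDC and 5.72% in maDC, and 5.99% in DCreg. The low value in maDC and DCreg was thus seen for the annotated-start form, whereas the shifted form held near the same value throughout. An end 1 hairpin base further on was the commonest for both forms, at 39.1% in HSC and 43.9% in imDC, with 52.1% in maDC and 46.2% in DCreg for the annotated start. For the shifted start it was 46.5% in HSC and 50.6% in imDC, then 54.2% in maDC and 56.1% in DCreg. That base is an A, so a templated A and an A added after the cut cannot be told apart there.

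Reads also ended in bases that the hairpin does not encode, at 28.2% of 3p reads in HSC, 25.6% in imDC and 32.1% in maDC, and 30.7% in DCreg. Such tails can be put on by nucleotidyl transferases after cutting, but sequencing errors at the 3′ end would be counted here too. An added A ended 11.0% of 3p reads in HSC and 14.2% in imDC, with 17.4% in maDC and 13.3% in DCreg. An added U ended 12.7% in HSC and 7.17% in imDC, then 9.86% in maDC and 12.9% in DCreg. The median of the 38 abundant miRNAs was 5.13% in HSC, 5.11% in imDC and 7.39% in maDC, and 6.38% in DCreg for an added A. miR-140-3p was above that median in all 4 libraries, at rank 5 to 8. The shifted read with an extra U had 17334 copies in HSC and 10036 in imDC, with 12926 in maDC and 26245 in DCreg. The one with an extra A had 13950 copies in HSC and 16932 in imDC, then 18484 in maDC and 28190 in DCreg, and was the commoner of the pair in all libraries but HSC.

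**Figure D5:**
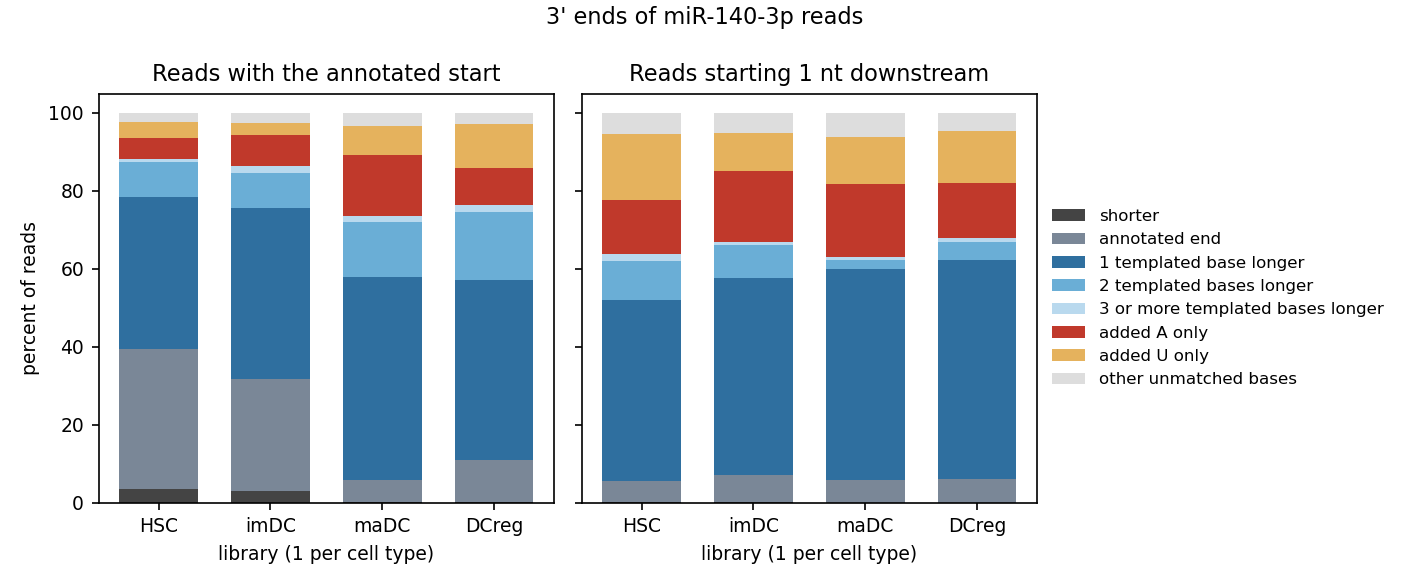
Share of reads (%) by 3′ end in the 4 libraries, for annotated-start and for 1-base-shifted miR-140-3p reads. Reads stopping at the annotated 3′ end make up 5.73% of the annotated-start form in maDC, against 28.9% in imDC, while in the shifted form they lie between 5.39% and 7.05% in all 4 libraries.

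Reads of miR-140-3p ending at or before the annotated 3′ end were fewer in maDC and DCreg than in HSC and imDC. For miR-140-3p the share was 16.6% in HSC, 16.6% in imDC and 5.74% in maDC, and 6.91% in DCreg. In maDC against imDC it was lower by 10.8 points, where the median change of the 38 miRNAs was -2.83 points and 28 of them were lower. In DCreg against HSC it was lower by 9.67 points, where the median was -0.737 points and 22 were lower. miR-140-3p was number 5 from the lowest in both. In DCreg against maDC its share was higher by 1.17 points, where the median was 1.55 points and 11 of the 38 were lower. A fall in both libraries was thus not shown for the 38 miRNAs as a set.

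Other products of the hairpin were rare beside the 3p reads. Reads that began 3 or more bases inside the 3p strand, left out of the counts above, numbered 176 in HSC and 227 in imDC, then 155 in maDC and 353 in DCreg. They outnumbered the 5p reads in every library. Reads lying mainly in the loop numbered 4 in HSC and 23 in imDC, with 9 in maDC and 1 in DCreg, and no read matched the opposite strand. The most frequent loop read, shown because its last 2 bases are the first 2 of the annotated 3p strand, had 2 copies in HSC, 19 in imDC and 9 in maDC.
loop read: gguuacgucaugcuguucua
Reads with 1 internal mismatch to miR-140-3p, left out of all counts above, made up 7.18% of exact and mismatched 3p reads together in HSC and 7.19% in imDC, then 5.96% in maDC and 7.23% in DCreg. The commonest was U11G, counted from 1 at the annotated 5′ base, at 1.90% in HSC, 2.36% in imDC and 2.39% in maDC, and 3.13% in DCreg. Sequencing error and a change in the RNA cannot be told apart in these reads.

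The miRNAs whose levels over the 4 libraries were most like miR-140-3p were let-7b-5p, miR-152-3p and let-7c-5p. Likeness was the root mean square difference of centred log2 levels from the deposited scores, taken over 197 miRNAs and 4 libraries, and came to 0.268, 0.290 and 0.322 for these 3. miR-872-3p at 0.413 and miR-320-3p at 0.451 came next. For miR-140-5p the nearest were miR-27a-3p at 0.317, miR-484 at 0.331 and miR-23a-5p at 0.339, then miR-720 at 0.373 and miR-3968 at 0.376. miR-3968 had 0 recounted reads in all 4 libraries, so its profile exists in the deposited scores only. No miRNA was among the nearest 5 of both strands.

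Markers of other cells were set beside these levels. A list of 9 miRNAs known from cartilage and mesenchymal cells summed to 1922 ppm in HSC and 942 ppm in imDC, with 1048 ppm in maDC and 2518 ppm in DCreg, and so was highest in the same library as miR-140-3p. That order rests on miR-152-3p, at 753 ppm in HSC, 857 ppm in imDC and 826 ppm in maDC, and 2258 ppm in DCreg. The other 8 members summed to 1169 ppm in HSC and 85.1 ppm in imDC, with 223 ppm in maDC and 259 ppm in DCreg, and so were highest in HSC. In DCreg over maDC, miR-152-3p and miR-143-3p (155 against 40.9 ppm) were 2 of 3 tested members that were higher by at least 2-fold, where 20.3% of all tested miRNAs were. The other tested member, miR-199a-3p, was at 79.6 against 119.5 ppm. In DCreg over HSC, 1 of 3 tested members was at least 2-fold higher, where 19.4% of all were, and 2 were at least 2-fold lower, where 56.0% of all were. The list did not move as one, for miR-455-3p, also known from cartilage, was at 3.67 ppm in DCreg and 38.9 ppm in maDC. miR-218-5p was at 0 in DCreg and HSC. A list of 5 miRNAs known from stem and progenitor cells summed to 2727 ppm in HSC and 610 ppm in imDC, then 1046 ppm in maDC and 2763 ppm in DCreg. Its members miR-99a-5p and miR-125b-5p, which many stromal cells express too, were higher in DCreg than in HSC, at 345 against 175 ppm and 363 against 58.0 ppm. The other 3 members were lower in DCreg than in HSC, at 2042 against 2193 ppm for miR-10a-5p, 12.5 against 251 ppm for miR-196b-5p and 0.367 against 49.2 ppm for miR-126-3p. The part of stromal cells in the DCreg level of miR-140-3p was not tested.

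The endothelial miRNAs miR-126-3p and miR-126-5p summed to 121 ppm in HSC and 8.00 ppm in imDC, then 2.46 ppm in maDC and 1.47 ppm in DCreg, so they were near 0 in DCreg, where miR-140-3p was highest. Of 4 erythroid miRNAs the sum was 15231 ppm in HSC, 19.4 ppm in imDC and 1.56 ppm in maDC, and 2.20 ppm in DCreg, with miR-144-5p at 0 in maDC and DCreg. The list of miRNAs known from dendritic and inflammatory cells held 4 members, miR-155-5p, miR-146a-5p, miR-146b-5p and miR-147-3p. It summed to 7818 ppm in HSC and 93684 ppm in imDC, with 70135 ppm in maDC and 37884 ppm in DCreg. Most of that sum was miR-146b-5p, at 89225 ppm in imDC and 36546 ppm in DCreg. Unlike the others, miR-146a-5p was highest in HSC, at 1561 ppm, with 1105 ppm in imDC, 309 ppm in maDC and 1115 ppm in DCreg. The endothelial and erythroid lists were both highest in HSC, and the dendritic list in imDC. miR-140-3p was lower in HSC and imDC than in maDC and DCreg. Its levels were among the values that chose it, so this is a description only. A list of the 4 strands of miR-142, which is found across blood cells, and miR-223, which is best known from myeloid cells, summed to 24232 ppm in HSC, 13430 ppm in imDC and 14525 ppm in maDC, and 10199 ppm in DCreg. All levels are shares of a whole, so a fall of other abundant miRNAs raises the share of miR-140-3p, and fewer cells of a type and less RNA per cell cannot be told apart. The ratio of the strands, the 5′ starts and the 3′ ends are taken within miR-140 and do not depend on that total.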

How the data were processed

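Small RNA of 18 to 30 nt was amplified by 12 PCR cycles and sequenced, per the labels' protocols, with 1 library per cell type. The authors deposited a table with 1 score per mature miRNA and library, with no unit or normalisation stated, and for each library a list of unique sequences with their read counts. The labels name miRBase release 19; an aligner or genome build is not given in the sources. From the deposited read counts, each sequence of at least 16 nt was matched exactly to the table's mature sequences, extended by RefSeq hairpin flanks (GRCm38.p6). The 5′ end had to lie within 2 nt of the annotated start, and up to 5 unmatched 3′ bases were allowed. The longest match won, and ties were split equally. Of 1195 table entries, 778 were placed in a RefSeq hairpin. Of the 2 miR-140 strands, 1 has an entry among the RefSeq mature sequences. A call was a 2-fold difference (pseudocount 0.5 on the deposited score) with at least 100 ppm in 1 library. Intervals are exact (Clopper-Pearson, 95%). The recount was tested on simulated data. Python 3.11.15, numpy 2.4.6, scipy 1.17.1, RNAfold 2.7.2 and matplotlib 3.10.9 were used. Genes and lists to name were set by rule: the 2 strands, the 5 nearest profiles of each and the marker lists. The members and lists were chosen with earlier results of these data known, and the thresholds of 0.1% for the minor strand, 50% for shifted reads and 10 points for a move were chosen after the values were seen. Other scalings, pseudocounts, filters and read rules were tried.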

Additional observations from a re-analysis of the deposited data

How the results depend on the processing

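No paired analysis was possible because each cell type had 1 library, and for the same reason no library could be left out. The level of miR-140-3p depended on the scaling. imDC over HSC was 0.918-fold with TMM factors, 0.747 with median-of-ratios factors, 0.815 without the 5 most abundant miRNAs in the total and 1.02 by the recount, which turned its direction. In the same order, maDC over imDC was 2.17, 2.42, 1.59 and 1.16, DCreg over maDC was 1.90, 1.78, 2.25 and 1.73, and DCreg over HSC was 3.79, 3.22, 2.92 and 2.05. The 2-fold rule was thus met in DCreg over HSC under all 4, in maDC over imDC under the first 2 only, and in DCreg over maDC only without the 5 most abundant. TMM moved the median of all miRNAs by 0.27, 0.61, 0.10 and 1.19 on the log2 scale in these 4 comparisons. For miR-140-5p, DCreg over HSC was 1.85-fold with TMM.

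The 3p share of both strands with annotated starts only was 99.9383% in HSC, 99.8979% in imDC and 99.9906% in maDC, and 99.9425% in DCreg. From deposited scores it was 99.9466% in imDC and 99.9914% in maDC. The shifted share of 3p reads with no unmatched 3′ base was 60.0% in HSC and 55.3% in imDC, with 49.2% in maDC and 78.9% in DCreg. With 1 mismatch allowed it was 67.2% in HSC, 52.7% in maDC and 81.3% in DCreg. For reads of 22 nt only it was 64.1%, 52.9%, 37.4% and 70.9% in the order HSC, imDC, maDC, DCreg, and for reads with 1 shared 3′ end 71.1%, 64.8%, 54.0% and 83.6%. These last 2 settings were chosen after seeing the data. The order maDC, imDC, HSC, DCreg from lowest to highest held in all 6 settings, but maDC was under 50% in 2 of them.

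Calls of higher and lower miRNAs, 49 and 53 in imDC over HSC, were 58 and 35 with TMM and 53 and 26 by the recount. For maDC over imDC, 15 and 72 became 27 and 43 with TMM, 31 and 31 with median-of-ratios and 2 and 77 by the recount. For DCreg over maDC, 28 and 39 became 44 and 27 without the 5 most abundant. For DCreg over HSC, 34 and 98 became 51 and 64, 48 and 71, and 58 and 94 with TMM, median-of-ratios and without the 5 most abundant. Without the 100 ppm filter the calls were 579, 560, 472 and 585, against 102, 87, 67 and 132 with it. The calls with the filter were out of 187, 160, 138 and 175 miRNAs tested. The numbers tested under the other settings are not given here, so these counts cannot be compared as shares. The cause of the changes in calls was not tested.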
